A study of Mus musculus with 6 samples.

Results

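The genes described here are 40 genes of mitosis and cytokinesis, chosen by name for their roles: mitotic kinases and their partners, spindle motors, condensin and chromosome proteins, kinetochore proteins, the spindle checkpoint with the anaphase machinery, and the cytokinesis apparatus. The choice was made with earlier results of these data known. All 40 were measured, among 18195 genes on the array, and each was represented by its brightest probe set that maps to a single gene. Total RNA came from CAD cells, a mouse neuroblastoma line with catecholaminergic traits. The empty vector group had been transfected with the control plasmid (RI vector) and the other group with the RIPmiR-124a-2 plasmid, which expresses miR-124a-2, a precursor of the neuronal microRNA miR-124. Each group had 3 biological replicates per the labels and 1 array each, and both groups were grown in serum-containing medium. The labels give neither the time after transfection nor the share of cells that took up the plasmid, and they do not say whether replicates came from separate cultures, so p-values measure the spread between these samples.

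Dividing cells build up the transcripts of this set in G2 and break down many of the proteins at the end of mitosis, so that the set is commonly read as a signature of proliferation. Cdk1 with its cyclins starts mitosis, condensins compact the chromosomes, kinetochores attach them to the spindle, and the checkpoint holds back Cdc20 until all are attached. Separase then cuts cohesin, and the central spindle and the contractile ring divide the cell. Many of these genes are transcribed through a short cell cycle homology region (CHR), bound by MuvB complexes, together with CCAAT boxes, bound by NF-Y. Neurons have left the cell cycle, and miR-124 is abundant in them. The comparison asks how far supplying miR-124a-2 moves this programme in a dividing cell line of neuronal lineage. In RNA from whole cultures, fewer cells in mitosis and less RNA per mitotic cell cannot be told apart.

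The promoter letters of the set are shown first because they are a feature that these genes share besides their function. Promoters (250 bases before to 50 after an annotated start, RefSeq, GRCm38.p6) were in the table for 34 of the 40 genes, as 36 promoters. The CHR letters TTTGAA, or TTCAAA on the other strand, were in 27 of the 36 promoters (75%), against 17.9% of all 32851 promoters of that length. The letters CCAAT, or ATTGG on the other strand, were in 28 of them (77.8%), against 37.4% of all, and both motifs were in 24 (66.7%), against 6.95% of all. An E2F-type site, GGCGGGAA or TTCCCGCC, was in 0 of the 36, and in 2.19% of all promoters. CHR and CCAAT matches overlapped in 0 of the 36 promoters. Within 50 bases on either side of the start, 66.7% of these promoters and 4.94% of all promoters had a CHR match, a window chosen after the positions were seen. By gene, 25 of the 34 had a CHR match and 26 a CCAAT match, and Birc5, Mad2l1, Ncaph, Nuf2 and Pttg1 had neither in the 300 bases.

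The 180 bases before the start are printed for 6 genes, 5′ to 3′ on the strand of the gene, with CHR and CCAAT matches of either strand in capitals. Ect2, Ncapg and Smc2 were the genes with the most negative log2 fold changes among the 11 that had both motifs in that stretch. Top2a and Cdk1, with several matches each, and Pttg1, with none and the log2 fold change nearest to 0, were added after the values were seen. In Ect2 (chr3:27153879-27154058, minus strand) the CHR match began 114 bases before the start and the CCAAT matches 96 and 55 bases before it. In Ncapg (chr5:45669745-45669924, plus strand) the CHR match lay 30 bases and the CCAAT match 176 bases before the start, and in Smc2 (chr4:52439041-52439220, plus strand) they lay 145 and 119 bases before it. Top2a (chr11:99024190-99024369, minus strand) had CHR matches 179 and 23 bases and CCAAT matches 149, 98, 78 and 58 bases before the start. Cdk1 (chr10:69352913-69353092, minus strand) had CHR matches 71 and 15 bases and CCAAT matches 80 and 48 bases before the start, and Pttg1 is at chr11:43425982-43426161 on the minus strand.
Ect2: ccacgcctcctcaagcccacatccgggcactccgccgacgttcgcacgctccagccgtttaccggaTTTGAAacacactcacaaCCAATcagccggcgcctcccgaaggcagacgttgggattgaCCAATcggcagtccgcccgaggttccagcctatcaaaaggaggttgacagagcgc
Ncapg: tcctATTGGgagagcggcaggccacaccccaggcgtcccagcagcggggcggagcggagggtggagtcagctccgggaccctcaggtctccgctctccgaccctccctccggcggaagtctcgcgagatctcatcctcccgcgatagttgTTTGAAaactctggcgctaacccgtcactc
Smc2: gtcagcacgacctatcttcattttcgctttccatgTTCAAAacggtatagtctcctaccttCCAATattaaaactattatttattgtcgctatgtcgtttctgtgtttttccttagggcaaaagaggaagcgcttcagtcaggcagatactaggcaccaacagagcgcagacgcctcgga
Top2a: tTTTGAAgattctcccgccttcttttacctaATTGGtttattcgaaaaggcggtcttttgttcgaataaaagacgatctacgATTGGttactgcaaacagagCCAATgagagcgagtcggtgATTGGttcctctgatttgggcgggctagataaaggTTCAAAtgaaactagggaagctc
Cdk1: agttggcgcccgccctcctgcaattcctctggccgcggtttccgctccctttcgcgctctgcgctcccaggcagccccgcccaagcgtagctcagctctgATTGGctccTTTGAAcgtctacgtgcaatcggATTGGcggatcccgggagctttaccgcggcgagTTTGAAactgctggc
Pttg1: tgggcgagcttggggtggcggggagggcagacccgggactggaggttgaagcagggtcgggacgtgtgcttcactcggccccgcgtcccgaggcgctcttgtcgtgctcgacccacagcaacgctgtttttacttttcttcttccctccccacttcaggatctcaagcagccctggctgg

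**Figure D1:**
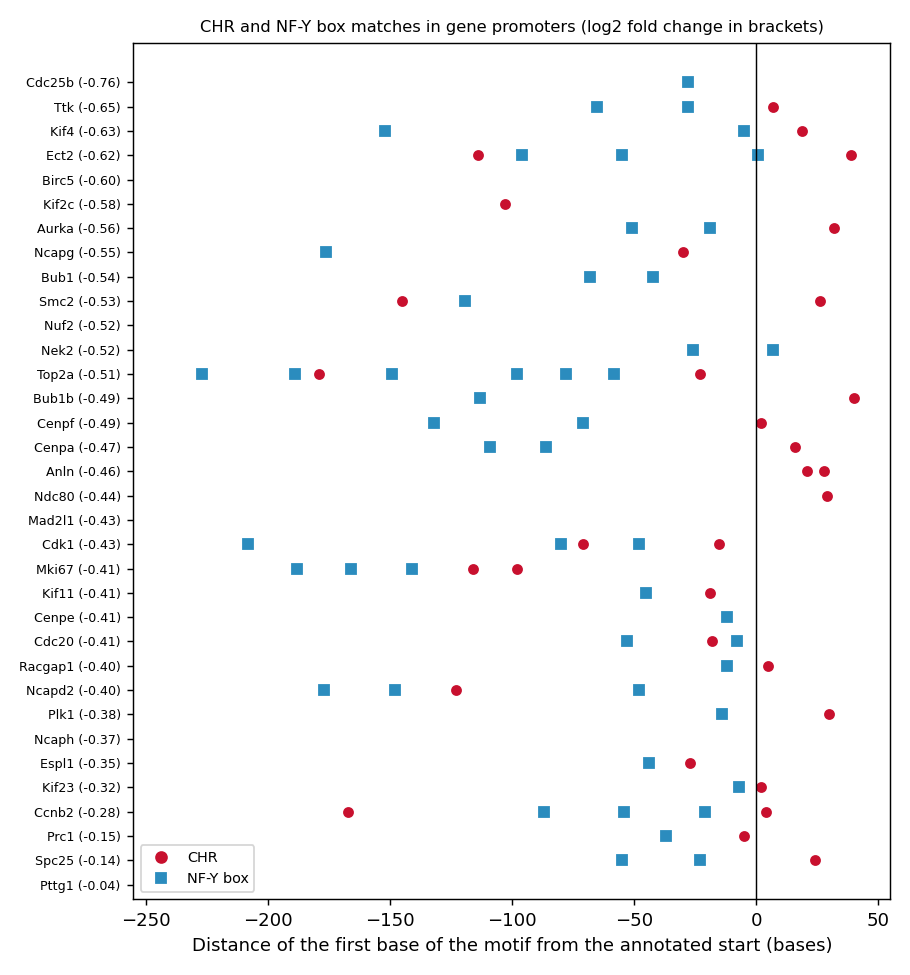
Positions of CHR matches (red circles) and CCAAT matches (blue squares, NF-Y box) in the promoters of 34 genes, in bases from the annotated start at 0 (negative before it), with genes ordered by their log2 fold change in brackets. Matches gather around the start in most rows, and the rows of Birc5, Nuf2, Mad2l1, Ncaph and Pttg1 are empty.

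Signals of the 40 genes ran from 6.60 to 10.88 on the log2 scale in single arrays, while control probe sets for a bacterial transcript averaged 3.37 to 3.5, so all of them were measured well above that level. Markers of the cell line were present in part: the catecholaminergic and neuroendocrine genes Dbh, Phox2a, Hand2 and Chgb had mean log2 signals of 10.16, 11.08, 11.31 and 12.16 in the empty vector group. Others were dim there: Th, the first enzyme of catecholamine synthesis, had 6.32, Ddc 5.23 and Gata3 5.28. Ddc and Gata3 lay just below the highest array average of the epithelial marker list (5.33). They lay above those of the fibroblast, leukocyte, endothelial and glial lists (at most 5.13). None of 12 measured markers of that type passed the test, with 11 above 0 and a median log2 fold change of 0.17. Markers of fibroblasts, leukocytes, endothelium, epithelium and glia averaged 4.28 to 5.33 per list and array with the empty vector and 4.26 to 5.22 with miR-124a-2, and none of them passed. Single markers in these lists were brighter, near the level of Th: Krt8 had 6.62, Epcam 6.38, Csf1r 6.16 and Sox10 5.99 in the empty vector group. The arrays themselves formed 2 sets that followed the groups in part: empty vector replicate 1 and miR-124a-2 replicates 1 and 2 had interquartile ranges of 3.06 to 3.10 (narrow arrays), and the other 3 had 3.26 to 3.35 (wide arrays). Poly-A control transcripts were higher in the replicate 1 array of each group (5.96 and 5.97) than in the other 4 (5.57 to 5.71). Signs of RNA quality moved with the array sets too: 18S rRNA probe sets averaged 5.57, 5.83 and 5.23 in empty vector replicate 1 and miR-124a-2 replicates 1 and 2, against 4.71 to 4.87 in the wide arrays. The 3′ minus 5′ log2 signal of Tfrc, a control for RNA integrity, was 1.34, 1.55 and 1.09 in these narrow arrays, against 0.95 to 1.02 in the wide ones. With 3 arrays per group, the number of arrays sets the precision of every value.

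All 40 mitosis and cytokinesis genes had a lower mean log2 signal with miR-124a-2 than with the empty vector, and none passed the test across all genes (limma, Benjamini-Hochberg adjusted p under 0.05). Their log2 fold changes ran from -0.76 for Cdc25b to -0.042 for Pttg1, with a median of -0.45, or 1.37-fold lower, and 31 of the 40 lay between -0.6 and -0.3. The median over all 18195 genes was 0.015, and 45.8% of all genes were below 0. Over the 6080 genes whose mean signal lay in the range of these 40 (7.04 to 10.74), the median was 0.0077.

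Of all genes, 0.698% passed as lower and 0.209% as higher, and of the 40 genes 0 passed either way. At an unadjusted p under 0.05 in limma, 30 of the 40 were lower and 0 higher, against 5.79% of all genes lower. That count was 16 without empty vector replicate 2, 14 without empty vector replicate 3, 15 without miR-124a-2 replicate 1 and 18 without miR-124a-2 replicate 2, and 37 and 35 without empty vector replicate 1 and miR-124a-2 replicate 3. Over all genes, lower and higher together, it was 1285, 1313, 1768, 1787, 2144 and 2727 in the same order, and 1988 with all arrays. In 15 of the 40 the lowest empty vector array lay above the highest miR-124a-2 array, which held for 7.76% of all genes. The genes were read from the same 6 arrays and move together in them, so these counts do not stand for 40 separate observations. The count of 0 changed when miR-124a-2 replicate 3 was left out, when Cdc25b, Smc2 and Ttk passed as lower (3 of 40, with 1.68% of all genes lower in that fit). It changed most with the replicate number as a block in limma, when 8 of 40 passed as lower, beside 305 of all 18195 genes. The 8 were Cdc25b, Aurka, Ncapg, Smc2, Smc4, Bub1, Birc5 and Kif4. Counts in other fits are given at the end.

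Empty vector replicates 2 and 3 lay above miR-124a-2 replicates 1 and 2 in all 40 genes, and the order of the arrays otherwise varied from gene to gene. The highest array was empty vector replicate 3 in 27 genes and replicate 2 in 13, and the lowest was miR-124a-2 replicate 2 in 21, miR-124a-2 replicate 1 in 18 and empty vector replicate 1 in 1. In the middle for most genes were empty vector replicate 1, which was below both other empty vector arrays in 39 genes, and miR-124a-2 replicate 3, which was above both others of its group in 38. Of these 2 arrays empty vector replicate 1 was the higher in 15 genes. Relative to the mean of the empty vector arrays, the median over the 40 genes was -0.28, 0.11 and 0.15 in empty vector replicates 1 to 3 and -0.58, -0.58 and -0.20 in miR-124a-2 replicates 1 to 3. The groups therefore overlapped at these 2 arrays, of which the first is narrow and the second wide.

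**Figure D2:**
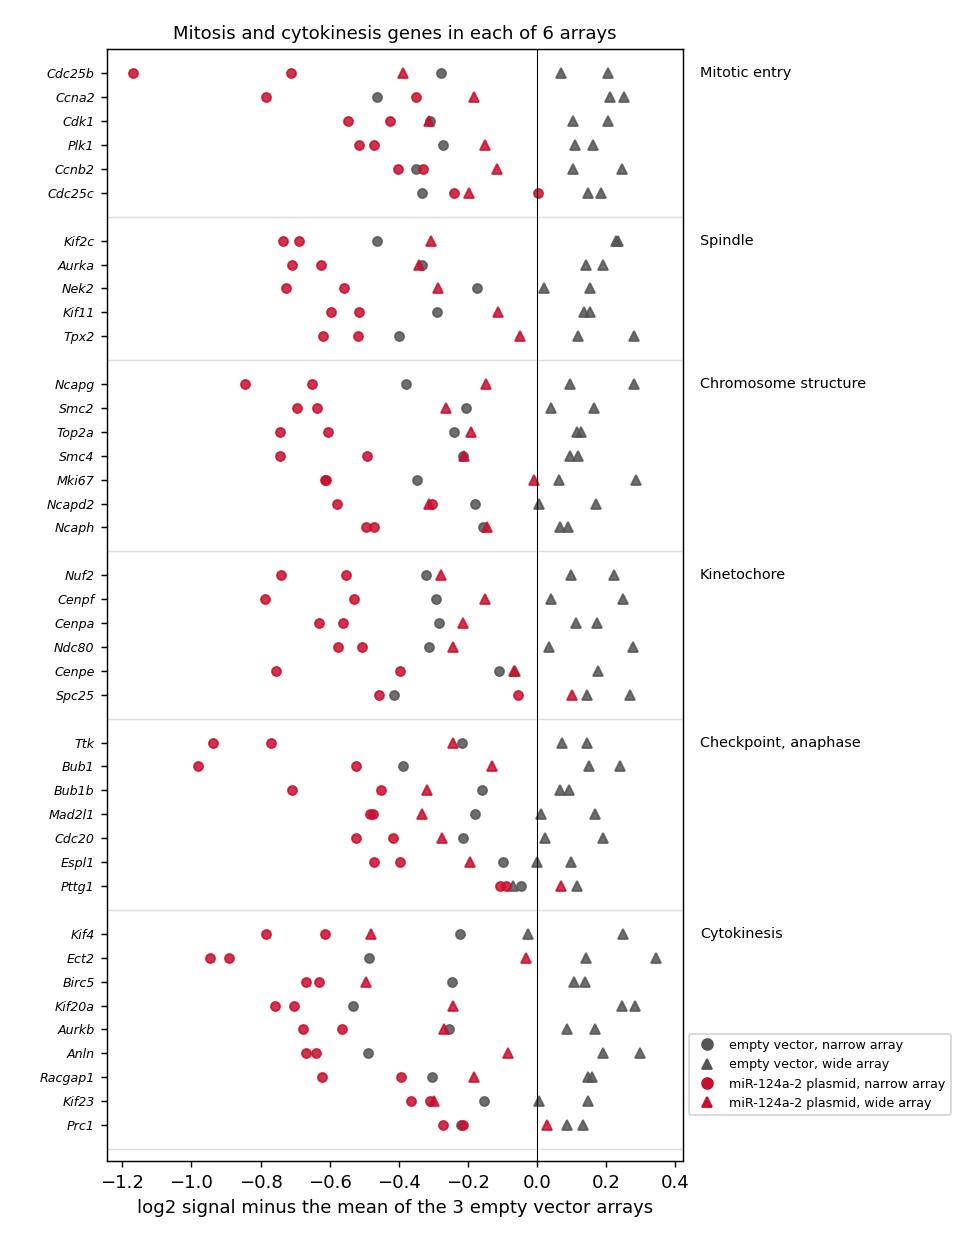
Each point is 1 array: the log2 signal of a gene minus its mean in the 3 empty vector arrays, with grey for empty vector and red for miR-124a-2 plasmid, circles for narrow and triangles for wide arrays, and genes grouped by role. Grey triangles lie to the right and red circles to the left in most rows, with the grey circle and the red triangle between them.

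Since the array set ran partly with the groups, the same comparison was made within each set. Within the narrow arrays, where a single empty vector array stands against 2 with miR-124a-2, 38 of the 40 genes were below 0, with a median of -0.31. Within the wide arrays, where 2 empty vector arrays stand against a single one with miR-124a-2, 39 were below 0, with a median of -0.35. Below 0 in both were 37 of the 40 genes and 31.3% of all genes. The exceptions were Cdc25c (0.21 narrow) and Spc25 (0.16 narrow) and, in the wide arrays, Pttg1 (0.047). Between the sets, with the groups taken into account, all 40 were higher in wide than in narrow arrays (median 0.38, from 0.12 for Pttg1 to 0.81 for Ect2), which held for 42.7% of all genes. In the 6080 genes of the same signal range that median was 0.075. The narrow arrays, where the 40 genes were lower, are also those with the higher 18S signal and Tfrc 3′ minus 5′ difference, and the part of RNA quality in the result was not tested.

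With the array set as a block in limma, the median log2 fold change of the 40 genes was -0.33, with 39 below 0. Aurka, Smc2, Ttk, Birc5 and Kif4 then passed as lower (5 of 40, against 1.58% of all genes in that fit). Birc5 had -0.51 (SE 0.09, adjusted p = 0.0269), Kif4 -0.53 (SE 0.11, adjusted p = 0.0408), Ttk -0.49 (SE 0.10, adjusted p = 0.0439), Aurka -0.42 (SE 0.09, adjusted p = 0.0483) and Smc2 -0.41 (SE 0.09, adjusted p = 0.0490). Over all 19 other fits the adjusted p of these 5 genes ran from 0.0196 to 0.814. Of the 40 genes, 9 passed in at least 1 of those fits and 31 in none. The same share was not counted over all genes, of which 0 to 546 passed per fit, so the 9 cannot be set against a background.

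**Figure D3:**
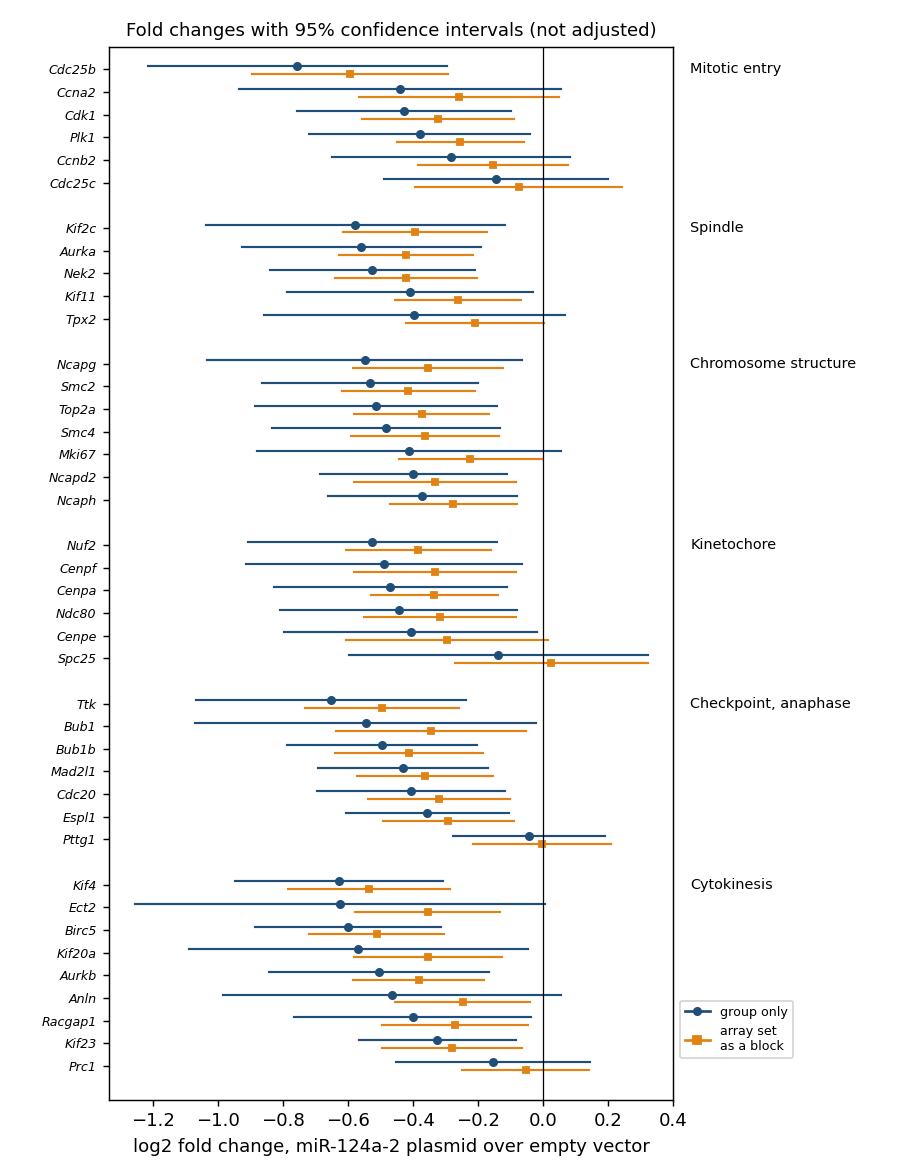
Log2 fold change (miR-124a-2 plasmid over empty vector) of each gene with its 95% confidence interval, not adjusted for the number of genes, from the fit on group only (blue circles) and with the array set as a block (orange squares). Intervals from group only lie below 0 for 30 of the 40 genes and include 0 for 10, and the median with the block is nearer to 0 (-0.33 against -0.45).

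The 6 genes of mitotic entry had a median log2 fold change of -0.40 (-0.14 in the narrow arrays alone and -0.39 in the wide ones). Cdc25b, a phosphatase that removes inhibitory phosphates from Cdk1, had log2 signals of 7.49, 7.84 and 7.98 in empty vector replicates 1 to 3 and 6.60, 7.06 and 7.38 in miR-124a-2 replicates 1 to 3. The groups did not overlap, miR-124a-2 replicate 1 was the lowest by a wide margin, and the log2 fold change was -0.76 with an SE of 0.20 (adjusted p = 0.159). Cdk1, the kinase that drives mitosis, had log2 signals of 10.37, 10.88 and 10.78 in the 3 empty vector arrays and 10.13, 10.25 and 10.37 in the 3 miR-124a-2 arrays, in replicate order. Empty vector replicate 1 and miR-124a-2 replicate 3 were level to the second decimal there, and the log2 fold change was -0.43 with an SE of 0.14 (adjusted p = 0.285). Ccna2, a cyclin of S phase and G2, had log2 signals of 9.90, 10.58 and 10.62 in empty vector replicates 1 to 3 and 9.58, 10.02 and 10.18 in miR-124a-2 replicates 1 to 3. Its groups overlapped, with empty vector replicate 1 below miR-124a-2 replicates 2 and 3, at a log2 fold change of -0.44 with an SE of 0.22 (adjusted p = 0.539). The polo kinase Plk1 had 9.42 ± 0.24 and 9.04 ± 0.20 (mean log2 signal ± SD, n = 3, empty vector first), a log2 difference of -0.38 (adjusted p = 0.38), and the cyclin gene Ccnb2 had 7.99 ± 0.31 and 7.70 ± 0.15 (mean ± SD, n = 3), a log2 difference of -0.28 (adjusted p = 0.621). Nearest to 0 was Cdc25c, another Cdk1-activating phosphatase, at -0.14 with an SE of 0.15 (adjusted p = 0.838) with a 95% confidence interval from -0.49 to 0.20.

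The 5 spindle genes had a median of -0.52 (-0.27 narrow, -0.37 wide). Kif2c, a kinesin that takes microtubules apart, had log2 signals of 7.33, 8.02 and 8.03 in the 3 empty vector arrays and 7.10, 7.06 and 7.48 in the 3 miR-124a-2 arrays, in replicate order. Empty vector replicate 1 lay among the values of the other group, and the log2 fold change was -0.58 with an SE of 0.20 (adjusted p = 0.3). Aurka, the kinase of spindle poles, had log2 signals of 9.44, 9.91 and 9.96 in empty vector replicates 1 to 3 and 9.06, 9.15 and 9.43 in miR-124a-2 replicates 1 to 3. All 3 empty vector arrays were above all 3 of the other group, though replicates 1 and 3 of opposite groups nearly met, at -0.56 with an SE of 0.16 (adjusted p = 0.199). Nek2, a kinase that separates centrosomes, had log2 signals of 9.95, 10.14 and 10.28 in the 3 empty vector arrays and 9.56, 9.40 and 9.83 in the 3 miR-124a-2 arrays, in replicate order. Its groups stood apart as well, at -0.52 with an SE of 0.14 (adjusted p = 0.155). The motor gene Kif11, whose protein pushes the poles apart, had 7.73 ± 0.25 and 7.33 ± 0.26 (mean ± SD, n = 3), a log2 difference of -0.41 (adjusted p = 0.404), and Tpx2, an activator of Aurka and the spindle gene nearest to 0, had 9.20 ± 0.35 and 8.80 ± 0.30 (mean ± SD, n = 3), a log2 difference of -0.39 (adjusted p = 0.56). A second probe set of Aurka had a log2 fold change of 0.054.

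The 7 genes of chromosome structure had a median of -0.48 (-0.37 narrow, -0.32 wide). Ncapg, a subunit of condensin I, had log2 signals of 7.51, 7.98 and 8.17 in empty vector replicates 1 to 3 and 7.04, 7.24 and 7.74 in miR-124a-2 replicates 1 to 3. Empty vector replicate 1 was below miR-124a-2 replicate 3, and the log2 fold change was -0.55 with an SE of 0.21 (adjusted p = 0.372). Smc2, an ATPase shared by both condensins, had log2 signals of 9.88, 10.12 and 10.25 in the 3 empty vector arrays and 9.45, 9.39 and 9.82 in the 3 miR-124a-2 arrays, in replicate order. Its groups did not overlap, at -0.53 with an SE of 0.15 (adjusted p = 0.17), and each of its 5 probe sets was lower. Top2a, which untangles sister chromatids, had log2 signals of 10.51, 10.87 and 10.86 in empty vector replicates 1 to 3 and 10.00, 10.14 and 10.55 in miR-124a-2 replicates 1 to 3. Replicate 1 of the empty vector group and replicate 3 of the other group changed places there by a small margin, at -0.51 with an SE of 0.16 (adjusted p = 0.248), and 1 of its 3 probe sets had 0.21. The other condensin genes lay close together: Smc4 had a log2 fold change of -0.48 with an SE of 0.15 (adjusted p = 0.247), Ncapd2 one of -0.40 with an SE of 0.13 (adjusted p = 0.245) and Ncaph, the nearest to 0, one of -0.37 with an SE of 0.13 (adjusted p = 0.291). Mki67, the proliferation marker that coats mitotic chromosomes, had 9.99 ± 0.32 and 9.58 ± 0.35 (mean ± SD, n = 3), a log2 difference of -0.41 (adjusted p = 0.544).

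Among the 6 kinetochore genes the median was -0.46 (-0.32 narrow, -0.33 wide), and in each of them the groups overlapped. Nuf2, of the NDC80 complex that grips microtubules, had log2 signals of 8.08, 8.62 and 8.50 in the 3 empty vector arrays and 7.66, 7.85 and 8.12 in the 3 miR-124a-2 arrays, in replicate order. Empty vector replicate 1 lay just below miR-124a-2 replicate 3, and the log2 fold change was -0.52 with an SE of 0.17 (adjusted p = 0.249). Cenpf, a protein of the outer kinetochore, had log2 signals of 8.50, 8.83 and 9.04 in empty vector replicates 1 to 3 and 8.26, 8.0 and 8.64 in miR-124a-2 replicates 1 to 3, at -0.49 with an SE of 0.19 (adjusted p = 0.356). Cenpa, the histone variant that marks centromeres, had log2 signals of 8.71, 9.17 and 9.11 in the 3 empty vector arrays and 8.44, 8.37 and 8.79 in the 3 miR-124a-2 arrays, in replicate order, at -0.47 with an SE of 0.16 (adjusted p = 0.279). In these 2 genes miR-124a-2 replicate 3 again reached above empty vector replicate 1. Ndc80 had 7.26 ± 0.30 and 6.82 ± 0.18 (mean ± SD, n = 3), a log2 difference of -0.44 (adjusted p = 0.323), and Cenpe, a kinesin of the kinetochore, had 8.26 ± 0.15 and 7.85 ± 0.34 (mean ± SD, n = 3), a log2 difference of -0.41 (adjusted p = 0.427). Spc25, also of the NDC80 complex, had a smaller difference than its partners Nuf2 and Ndc80, with log2 signals of 8.46, 9.14 and 9.02 in empty vector replicates 1 to 3 and 8.41, 8.82 and 8.97 in miR-124a-2 replicates 1 to 3. Its log2 fold change was -0.14 with an SE of 0.20 (adjusted p = 0.901), with a 95% confidence interval from -0.60 to 0.32, which still holds the values of Nuf2 and Ndc80. With the array set as a block it was 0.027, above 0.

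The 7 checkpoint and anaphase genes had a median of -0.43 (-0.34 narrow, -0.35 wide), and the groups did not overlap in 5 of them. Ttk, the kinase that recruits the checkpoint to kinetochores, had log2 signals of 7.5, 7.79 and 7.86 in the 3 empty vector arrays and 6.95, 6.78 and 7.47 in the 3 miR-124a-2 arrays, in replicate order. Its 3 empty vector values were higher than all others by a small margin, at -0.65 with an SE of 0.18 (adjusted p = 0.182). Bub1, a checkpoint kinase, had log2 signals of 8.70, 9.23 and 9.32 in empty vector replicates 1 to 3 and 8.10, 8.56 and 8.96 in miR-124a-2 replicates 1 to 3, at -0.54 with an SE of 0.23 (adjusted p = 0.429), with overlap at empty vector replicate 1. Bub1b, part of the complex that inhibits Cdc20, had log2 signals of 9.23, 9.48 and 9.45 in the 3 empty vector arrays and 8.94, 8.68 and 9.07 in the 3 miR-124a-2 arrays, in replicate order. These groups stood apart, at -0.49 with an SE of 0.13 (adjusted p = 0.151). The checkpoint gene Mad2l1 had 9.87 ± 0.17 and 9.44 ± 0.084 (mean ± SD, n = 3), a log2 difference of -0.43 (adjusted p = 0.159), Cdc20, the activator of the anaphase-promoting complex, 9.58 ± 0.20 and 9.18 ± 0.13 (mean ± SD, n = 3), a log2 difference of -0.41 (adjusted p = 0.238), and Espl1, which encodes separase, 9.08 ± 0.098 and 8.73 ± 0.14 (mean ± SD, n = 3), a log2 difference of -0.35 (adjusted p = 0.234). Pttg1, which encodes securin, the inhibitor of separase, was nearly level: it had log2 signals of 10.71, 10.69 and 10.87 in empty vector replicates 1 to 3 and 10.65, 10.67 and 10.83 in miR-124a-2 replicates 1 to 3. Its log2 fold change of -0.042 with an SE of 0.10 (adjusted p = 0.949) had a 95% confidence interval from -0.28 to 0.19.

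The 9 genes of the chromosomal passengers, central spindle and contractile ring had a median of -0.50 (-0.20 narrow, -0.37 wide). Kif4, a kinesin of chromosome arms and the central spindle, had log2 signals of 7.69, 7.88 and 8.16 in the 3 empty vector arrays and 7.13, 7.30 and 7.43 in the 3 miR-124a-2 arrays, in replicate order. The groups did not overlap, at -0.63 with an SE of 0.14 (adjusted p = 0.0939). Birc5, which encodes survivin of the passenger complex, had log2 signals of 9.06, 9.44 and 9.41 in empty vector replicates 1 to 3 and 8.67, 8.63 and 8.81 in miR-124a-2 replicates 1 to 3. All miR-124a-2 arrays were below all others by a clear margin, and its -0.60 with an SE of 0.13 (adjusted p = 0.0761) was the smallest adjusted p of the 40 genes. Ect2, the activator of RhoA at the division site, had log2 signals of 7.83, 8.46 and 8.67 in the 3 empty vector arrays and 7.38, 7.43 and 8.29 in the 3 miR-124a-2 arrays, in replicate order. Its groups overlapped widely, with miR-124a-2 replicate 3 between empty vector replicates 1 and 2, at -0.62 with an SE of 0.28 (adjusted p = 0.465). Aurkb, the kinase of the passenger complex, had 8.43 ± 0.22 and 7.92 ± 0.21 (mean ± SD, n = 3), a log2 difference of -0.50 (adjusted p = 0.21), and Kif20a, a motor of the central spindle, 8.02 ± 0.46 and 7.45 ± 0.28 (mean ± SD, n = 3), a log2 difference of -0.57 (adjusted p = 0.4). The centralspindlin partners Kif23 and Racgap1 had log2 fold changes of -0.32 with an SE of 0.11 (adjusted p = 0.261) and -0.40 with an SE of 0.16 (adjusted p = 0.393), and Anln, a scaffold of the contractile ring, had -0.46 with an SE of 0.23 (adjusted p = 0.535). Prc1, which bundles central spindle microtubules, was nearest to 0 at -0.15 with an SE of 0.13 (adjusted p = 0.787), with a 95% confidence interval from -0.45 to 0.14.

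**Figure D4:**
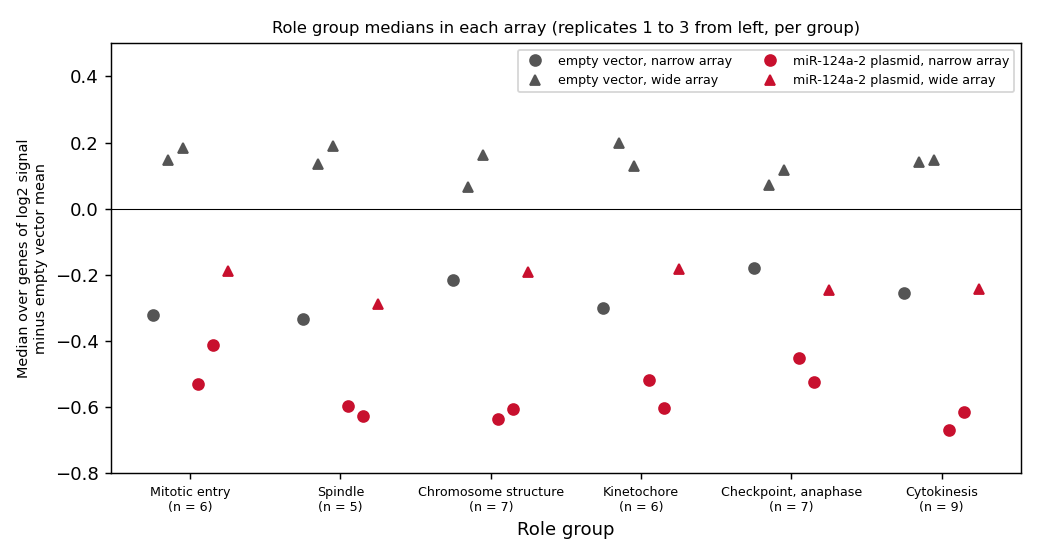
Median over the genes of each role group of the log2 signal minus the empty vector mean, 1 point per array in the order of replicates within each group (grey empty vector, red miR-124a-2 plasmid, circles narrow and triangles wide arrays). In all 6 role groups empty vector replicates 2 and 3 are on top (0.065 to 0.20) and miR-124a-2 replicates 1 and 2 at the bottom (-0.67 to -0.41), while the order within each pair, and that of the 2 arrays between them, differs between role groups.

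The choice of probe set mattered little for direction. The 40 genes had 86 single-gene probe sets, of which 84 were lower with miR-124a-2 and 2 were not, those of Aurka and Top2a named above. With the mean of a gene's probe sets, the median of the 40 genes was -0.43. By motif, the 25 genes with a CHR match had a median log2 fold change of -0.44 (-0.65 to -0.14) and the 9 without had -0.52 (-0.76 to -0.042). Genes with and without a CCAAT match both had a median of -0.45, and these differences between motif classes were not tested.

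Other genes of the same processes were read beside these 40. Of 69 further mitotic genes measured (of 70 listed), 3 passed as lower, none as higher and 66 did not pass, and 67 were below 0 with a median log2 fold change of -0.42. Ercc6l, a helicase of the centromere known as PICH, fell by 1.10 (SE 0.17, adjusted p = 0.0286), Cenph, of the inner kinetochore, fell by 0.76 (SE 0.12, adjusted p = 0.0302), and Sgo1, which protects centromeric cohesion, fell by 0.71 (SE 0.13, adjusted p = 0.0451). The calls depended on single arrays: none of the list passed without any 1 of the empty vector arrays or of miR-124a-2 replicates 1 and 2, and 19 passed without miR-124a-2 replicate 3. With the array set as a block 14 passed, all lower. Over all genes, 0.698% passed as lower in the fit on group only, 1.68% without miR-124a-2 replicate 3 and 1.58% with the block. CHR letters were in 51.6% and CCAAT letters in 65.6% of the 64 promoters found for this list.

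The anaphase-promoting complex, the ubiquitin ligase that ends mitosis, was read in the same way. None of its 16 subunits and partners passed, 7 were below 0, and the median log2 fold change was 0.011. The values farthest from 0 were -0.61 for its inhibitor Fbxo5 (adjusted p = 0.0939), which passed in the fit with a block for the array set, and -0.30 for the ubiquitin-conjugating enzyme gene Ube2s (adjusted p = 0.231). CHR letters were in 3 of 17 promoters of this list (17.6%). At an unadjusted p under 0.05 in limma, 2 of the 16 were lower and 1 higher. Of all 18195 genes, 1054 (5.79%) were lower and 934 higher at that threshold. The difference between this list and the 40 genes was not tested.

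Of 19 measured regulators of G2/M transcription (of 20 listed), E2f7, a repressor of the E2F family, fell by 0.92 (SE 0.16, adjusted p = 0.0437), none passed as higher and 18 did not pass. Of these regulators 16 were below 0, with a median log2 fold change of -0.23. The call of E2f7 was lost without any 1 of the empty vector arrays or of miR-124a-2 replicates 1 and 2, each of which left 0 of the list, and 5 passed without miR-124a-2 replicate 3. With the array set as a block 5 passed as lower and 1 as higher. Over all 18195 genes, 0.698% passed as lower in the fit on group only and 1.68% without miR-124a-2 replicate 3. With the block, 287 of all genes passed as lower and 259 as higher. Of the MuvB core, which binds CHR sites, Lin54 had -0.60, Lin9 -0.39, Lin52 -0.15, Rbbp4 -0.059 and Lin37 0.094. Of the factors that join it, Mybl2 had -0.59, Foxm1 -0.64, Rbl1 -1.03, E2f4 -0.22, E2f5 0.12 and Rbl2 0.26. Probe sets of E2f5 differed (-0.94 to 0.12, 2 of 3 lower), and E2f5 passed as lower on the mean over probe sets. For Rbl1, 3 of 4 probe sets were lower (-1.03 to 0.030). These genes were named after their values were seen, and none of them passed in the fit on group only.

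**Figure D5:**
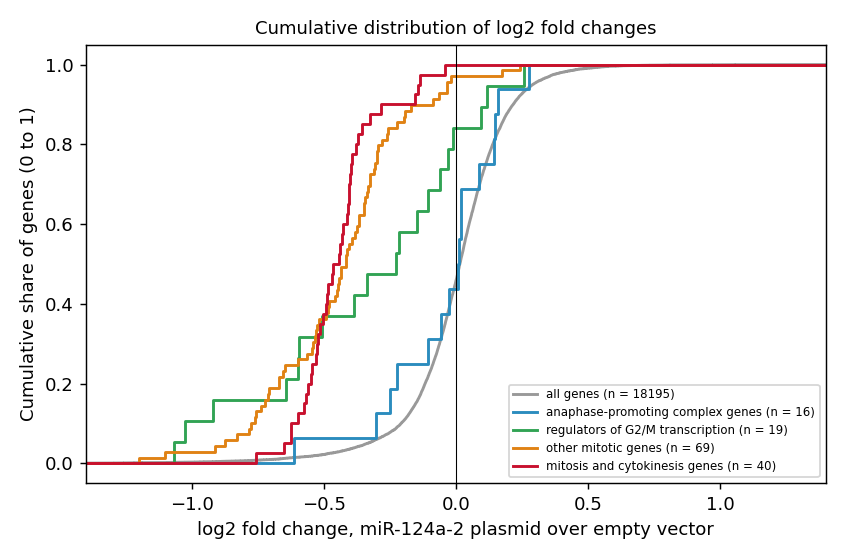
Cumulative share of genes (vertical axis, 0 to 1) against log2 fold change for the 40 mitosis and cytokinesis genes (red), 69 other mitotic genes (orange), 19 regulators of G2/M transcription (green), 16 anaphase-promoting complex genes (blue) and all 18195 genes (grey). The red curve reaches its top below 0, its median being -0.45, while the blue and grey curves cross 0 near their middle, with medians of 0.011 and 0.015.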

How the data were processed

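RNA of 6 CAD cell samples (3 per group) was measured on mouse expression arrays. The deposited values are log2 signals that the authors made with RMA, per the labels and the submitters' processing notes, so background correction and normalization across arrays were already done, and the scanner values were not used here. Of 45101 probe sets, 34958 map to 1 gene in the platform annotation of 2016, and for each of 18195 genes the brightest of them was kept. The groups were compared with limma 3.58.1 (lmFit and eBayes, R 4.3.3) over all genes, with Benjamini-Hochberg adjustment and a threshold of 0.05; the script was tested on simulated data. Fold changes are miR-124a-2 plasmid minus empty vector on the log2 scale. Arrays were divided into a narrow and a wide set at the largest gap in their interquartile ranges, and set membership served as a block in an alternative. Other alternatives were normalizations, filters, probe set rules, thresholds, variance models, a poly-A block, a replicate block and leaving out each array. In each role group the 3 genes with the largest absolute change are given by array, and the gene nearest to 0 is named. From other lists, up to 4 genes that passed, or otherwise up to 2 of the largest changes, are named. The 40 genes, the lists and the role groups were chosen with earlier results of these data known. Of the listed symbols, 4 were not matched and are not analysed here. Promoters come from RefSeq (GRCm38.p6), matched by symbol.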

Additional observations from a re-analysis of the deposited data

How the results depend on the processing

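The median log2 fold change of the 40 genes stayed below 0 under every alternative run, from -0.60 to -0.33, and 810 of the values of single genes under an alternative kept direction and side of the threshold, 26 newly passed and 4 changed sign: Top2a was 0.21 with the probe set of largest spread, Spc25 was 0.024 without miR-124a-2 replicate 1 (-0.34 to 0.024 over single arrays left out) and 0.027 with the array set as a block, and Pttg1 was 0.016 without empty vector replicate 3 (-0.098 to 0.016). The counts of calls moved more, and the cause was not tested. Genes changed among all genes, 165 in the fit reported, were 315 with quantile normalization, 287 with cyclic loess, 253 at a mean log2 signal of at least 5, 270 with an intensity trend, 266 with a robust trend, 51 with the probe set of largest spread, 290 with poly-A levels and 546 with array sets as a block, 17 at an adjusted p under 0.01, 366 at 0.10, and 0 to 343 without single arrays. With replicates 2 and 3 only, limma called 0 genes (1825 at an unadjusted p under 0.05), and so 0 of the other mitotic genes and 0 of the regulators. Of the 40 genes, none in the fit reported, 2 passed with quantile normalization, 1 with cyclic loess, 1 with either trend, 5 with the array set, 3 with the poly-A set as a block, 2 at an adjusted p under 0.10, and 0 to 3 without single arrays. Other mitotic genes (3) numbered 8 with quantile normalization, 8 with cyclic loess, 8 at the signal minimum, 9 with either trend, 1 on the mean over probe sets, 0 on the most variable one, 0 on all of them, 14 with the array set, 7 with the poly-A set, 0 at 0.01, 9 at 0.10, and 0 to 19 without single arrays. Anaphase-promoting complex genes (0) numbered 1 with quantile normalization, cyclic loess, either trend, the array set or a threshold of 0.10, and 0 to 1 without single arrays. Regulators of G2/M transcription (1) numbered 3 with quantile normalization, 2 with cyclic loess, 3 on the mean over probe sets, 0 on the most variable one, 0 on all of them, 6 with the array set, 5 with the poly-A set, 0 at 0.01, 3 at 0.10, and 0 to 5 without single arrays.

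Replicate numbers paired the arrays in part: the correlations of same-numbered arrays' deviations were 0.539, -3.89e-05 and 0.549 for replicates 1 to 3. Numbers 1 and 3 correlated best with their own, and number 2 did not. The labels do not say whether same-numbered arrays belong together, so the fit reported left the numbers out. With the replicate block, calls numbered 457 over all genes, 8 of the 40 genes, 14 other mitotic genes, 1 anaphase-promoting complex gene and 6 regulators.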
